A study of Homo sapiens with 10 samples.

Results

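GIFN2 and GIFN3 are 2 of 3 analogues of interferon gamma, which the series title calls partial agonists, and the question here was whether both gave the same transcriptional response and how small a difference between them repeated. The comparison used 4 of the 10 libraries of the series, GIFN3 A and B against GIFN2 A and B, chosen by their titles. A549 cells, a human lung cancer line, had received either protein at a recorded 62 nM for 48 h. The dose is written with a point and no further digit, so a digit may be missing. Wild-type IFNG (IFNG WT) and GIFN4, given at the same recorded dose and time with 2 libraries each, and untreated cells, also with 2 libraries, served as references. The labels repeat the dosing text for the untreated cells, which are taken as untreated from their titles. The A and B libraries of a group are described as biological replicates, and all groups come from the 1 cell line. The labels give no structural description of the analogues, and none is given here.

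Interferon gamma is a dimeric cytokine made mainly by T cells and natural killer cells. It binds the receptor chains IFNGR1 and IFNGR2, whose associated JAK kinases then start signalling to the nucleus. Genes for antigen presentation, for guanylate binding proteins and for further transcription factors are switched on, and other genes fall. A partial agonist engages the same receptor and gives less than the full response.

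No gene is named below. The 10 files list the same 20812 names in the same order, but the values of wild-type A never rose from a line to the next while the names ran alphabetically at 99.8% of the first 450 lines, so names and values are not paired. For the same reason the identity of the cells could not be checked against marker genes, and no sequence belongs to a line. A gene is therefore given as its line number. The deposited value is read as the log2 ratio of treated over untreated cells of the same letter, although the headers do not settle this. The tables of GIFN3 A, GIFN3 B and GIFN2 A name a comparison of the protein with wild type, that of GIFN2 B one with untreated cells, and both untreated tables also name wild type. The reading rests on the untreated tables, which hold 0 throughout, and on whole reads: with treated over untreated, 2702 lines of A and 2719 of B matched ratios of whole reads, against 321 and 376 with the ratio turned over. Subtracting GIFN2 from GIFN3 within a letter removes the untreated library, so the differences of A and of B share no library. All differences below are GIFN3 minus GIFN2 on the log2 scale unless another pair is named, and a positive difference means a higher level under GIFN3. Of the 20812 lines, 13276 (63.8%) were different from 0 in 2 or more of the treated libraries and were tested.

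GIFN3 and GIFN2 gave nearly the same levels over most genes. The median difference was 0.002 in A and 0.007 in B, and the lower and upper quartiles were -0.105 and 0.129 in A and -0.12 and 0.15 in B. Both differences were smaller than 0.2 in size in 6645 genes, 50.1% of those tested. The extremes ran from -1.832 to 1.685 in A and from -1.575 to 1.759 in B, so that no gene reached a 4-fold difference in either letter. By comparison, GIFN4 minus GIFN2 ran from -3.858 to 2.425 in A and from -2.435 to 2.67 in B.

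No gene passed the test between GIFN3 and GIFN2. The count was 0 of 13276 (0.0% called) at an adjusted p under 0.05 in limma with the letter as a block over the 6 analogue libraries, and the smallest adjusted p was 0.55. At an unadjusted p under 0.05 there were 1094 genes (8.24%), 622 higher and 472 lower under GIFN3, where 5% of the tests would be 664. GIFN4 was compared with each of them in the same fit, which shares the GIFN2 or GIFN3 libraries. It too had 0 genes (0.0%) against GIFN2 and 0 (0.0%) against GIFN3, with 2673 (20.1%) and 2453 (18.5%) at an unadjusted p under 0.05. The smallest adjusted p of GIFN4 in this fit was 0.0557 against GIFN2 and 0.0912 against GIFN3 (limma), nearer the threshold than 0.55. The count of 0 alone does not set GIFN3 and GIFN2 apart from pairs with larger differences, and counts in some other settings did. With genes of few reads left out, as defined below, limma called 0 of 10110 genes (0.0%) between GIFN3 and GIFN2, 392 (3.88%) for GIFN4 with GIFN2 and 136 (1.35%) for GIFN4 with GIFN3. At an unadjusted p under 0.05 these counts were 992 (9.81%), 2484 (24.6%) and 2285 (22.6%). With all 10 libraries in the fit they were 0 (0.0%), 139 (1.05%) and 50 (0.377%) after adjustment and 498 (3.75%), 1500 (11.3%) and 1251 (9.42%) before it.

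A p above the threshold does not show equal responses, so the intervals are given as well. The median half-width of the 95% intervals was 0.275. The whole interval lay within 1.5-fold of no difference in 75.3% of the genes and within 2-fold in 92.6%. These widths rest on the fit: without GIFN3 A the half-width was 0.423 and the first share 47.6%, without GIFN3 B 0.423 and 51.6%, without GIFN2 A 0.384 and 53.9%, and without GIFN2 B 0.384 and 56.1%. Without the letter as a block the half-width was 0.485, with 45% of the intervals within 1.5-fold and 79.9% within 2-fold. In the main fit these 2 shares were 66.6% and 88.9% for GIFN4 against GIFN2. Where the interval of a gene passed 2-fold, a difference of that size between GIFN3 and GIFN2 cannot be set aside from these data. The share of such genes depends on the fit. The smallest two-sided p of an exact permutation test of 2 libraries against 2 is 0.333, and the medians and shares that follow therefore carry no p.

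The differences between GIFN3 and GIFN2 were largely not the same genes in A and in B. Across the 13276 genes, none of which is an independent replicate, the A and B differences had a Pearson correlation of 0.118 and Spearman's rho 0.156. For GIFN4 minus GIFN2 the Pearson value was 0.493 and for GIFN4 minus GIFN3 it was 0.475. The covariance of A and B gives the spread that both letters share, which was an SD of 0.093 for GIFN3 minus GIFN2 beside 0.255 that belonged to a single letter. For GIFN4 minus GIFN2 the same 2 values were 0.256 and 0.259. The letters differed in spread only slightly, with an SD of 0.26 in A and 0.282 in B.

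**Figure D1:**
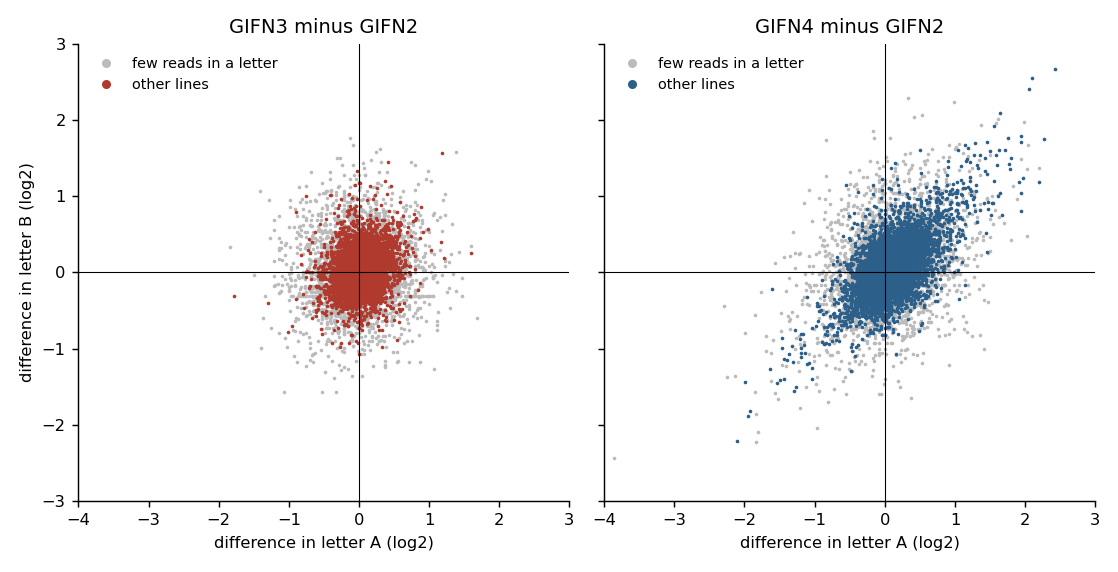
Difference between 2 analogues in letter A (x axis, log2) and in letter B (y axis, log2), 1 point per tested gene, for GIFN3 minus GIFN2 (left) and GIFN4 minus GIFN2 (right), with genes of few reads in grey. The left cloud is nearly round (Pearson 0.118) and the right cloud extends along the diagonal (0.493).

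How small a difference repeated was read by choosing genes on 1 letter and measuring them in the other. Of the 1909 genes with a difference of 0.2 to 0.3 in A, 59.6% had the same sign in B, and the median difference in B was 0.062 where it had been 0.237 in A. Of the 890 genes with a difference of at least 0.5 in A, 56.7% had the same sign in B, with a median of 0.069 regained from 0.663. Chosen in B, 1032 genes passed 0.5, of which 52.6% kept the sign in A and 0.03 was regained from 0.674. A larger difference in 1 letter was thus not a more repeatable one over all genes, and even among the 95 genes at 1 or more in A the share was 55.8%. GIFN4 minus GIFN2 behaved otherwise, since the share with the same sign went from 64.8% at 0.1 to 0.2 in A to 88.2% at 1 or more, where 0.862 of 1.239 was regained. Genes with a difference of exactly 0 in the other letter count as not repeated in these shares.

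**Figure D2:**
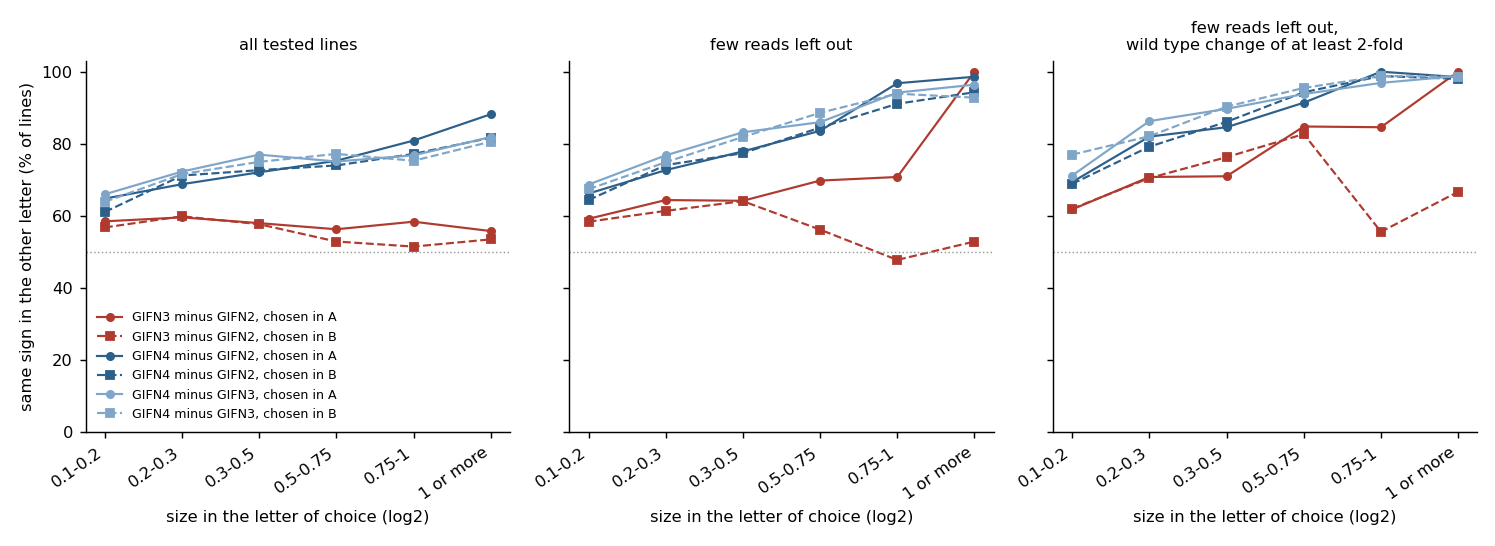
Percentage of genes whose difference had the same sign in the other letter (y axis), by the size of the difference in the letter used to choose them (x axis, log2), for 3 pairs of analogues and both letters of choice, over all tested genes, without genes of few reads, and without them among genes changed at least 2-fold by wild-type IFNG; the dotted line marks 50%. In the first panel GIFN3 minus GIFN2 stays between 51.5% and 59.9% while GIFN4 minus GIFN2 reaches 88.2%, and the right end of its curves in the other panels rests on few genes (8 at 1 or more in A and 17 in B in the middle panel, 6 and 9 in the last, where GIFN4 minus GIFN2 has 143 and 122, and 132 and 100).

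Differences past a limit in both letters with the same sign were counted next. At a limit of 0.2 there were 1285 such genes (9.68% of those tested) between GIFN3 and GIFN2, 2759 (20.8%) for GIFN4 with GIFN2 and 2721 (20.5%) for GIFN4 with GIFN3. At a limit of 0.5 GIFN3 and GIFN2 had 139 (1.05%), 85 higher and 54 lower under GIFN3, beside 102 genes past the limit with opposite signs. At 0.75 there were 34 (0.256%), with 16 of opposite sign, and at 1 there were 5 (0.0377%), with 2 of opposite sign. For GIFN4 minus GIFN2 the counts with the same sign were 714 (5.38%), 289 (2.18%) and 130 (0.979%), and those of opposite sign 75, 17 and 2. For GIFN4 minus GIFN3 the counts with the same sign were 536 (4.04%), 195 (1.47%) and 80 (0.603%). Genes that differed by 0.5 in both letters between GIFN3 and GIFN2 thus agreed in sign in 57.7% of cases and between GIFN4 and GIFN2 in 90.5%.

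The spread of the difference was larger in genes with fewer reads. The files hold no counts, but the 4 treated values of the lines matched above fit whole reads, with 10 to 100 reads in the untreated library. A tested gene matched in either letter is called a gene of few reads, and there were 3166 of them and 10110 others. The match cannot reach genes with very large rises, which may also have few untreated reads. Nor can it reach strongly lowered genes with over 100 untreated reads, which may have few treated reads. Only 2 of the 33 genes that wild type lowered by over 3 on the log2 scale were genes of few reads. The others may also include some genes held at the floor. The SD of the difference was 0.59 in A and 0.597 in B at 15 to 25 reads, 0.436 and 0.46 at 25 to 50 reads, 0.31 and 0.34 at 50 to 100 reads, and 0.185 and 0.21 in genes with no match. Counting error alone would give 0.473 and 0.474, 0.345 and 0.347, and 0.251 and 0.256 in the first 3 of these classes, where the observed SD was somewhat larger in both letters. Below 15 reads the observed 0.437 and 0.422 lay under the counting value of 0.599, in a range where values pile up at 10 reads. PCR reads carry no molecular identifiers here, so the counting values cover counting error only.

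**Figure D3:**
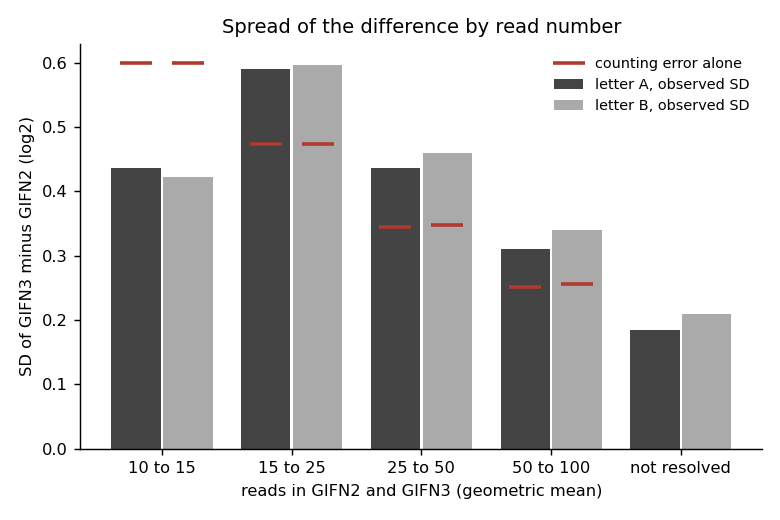
SD of GIFN3 minus GIFN2 over genes (y axis, log2) by the geometric mean of the matched reads in both libraries (x axis), for letters A and B, with the SD that counting error alone would give as a red mark. The bars fall from 0.59 and 0.597 at 15 to 25 reads to 0.185 and 0.21 in genes whose read number was not resolved.

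Depth also differed between the 2 proteins in the same direction in both letters. The commonest nonzero value of a library was taken to stand for equal read numbers, and by this measure GIFN3 was 1.16 times as deep as GIFN2 in A and 1.24 times in B. Equal reads in both libraries therefore appear as a difference of -0.208 in A and -0.311 in B. This touches genes at the apparent floor of 10 reads: 116 tested genes stood at 10 reads under both proteins in A, 130 in B and 12 in both letters. Exactly equal values under both proteins were found in 541 tested genes of A, 233 of them at 0, and in 482 of B, 128 of them at 0. The part of the unequal depth in the repeated differences was not tested.

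Without the genes of few reads the A and B differences correlated more closely, and more so among genes that wild-type IFNG changed, but large differences chosen in B did not repeat better. Over the 10110 other genes the Pearson correlation of A and B was 0.219, against 0.054 in the 3166 genes of few reads. Of the differences of 0.75 or more, 78.1% of those chosen in A kept their sign against 57.6% over all genes, but only 49.2% of those chosen in B against 52.2%. Among the 1316 of them that wild type raised or lowered at least 2-fold it was 0.389, and the SD shared by the letters was 0.161 beside 0.202 that belonged to 1 letter. Among the 8794 that it changed by less than 2-fold the correlation was 0.164 and the shared SD 0.073. The wild type libraries do not enter the difference, so this division does not use it. In the 1316 genes, a difference of 0.2 to 0.3 in A kept its sign in B in 150 of 212 genes (70.8%) and 0.108 of 0.24 was regained. A difference of 0.3 to 0.5 in B kept its sign in A in 135 of 177 (76.3%), with 0.198 of 0.367 regained. From 0.5 to 0.75 the sign was kept in 56 of 66 genes chosen in A (84.8%) and in 43 of 52 chosen in B (82.7%), with 0.289 of 0.572 and 0.306 of 0.593 regained. Above 0.75 the letters disagreed, with the same sign in 17 of 19 genes chosen in A (89.5%) and in 16 of 27 chosen in B (59.3%). Both letters passed 0.2 in 240 of the 1316 genes, with the same sign in 204 of these (138 higher and 66 lower under GIFN3).

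Set against the size of the wild type response, GIFN3 lay slightly above GIFN2 in the median at both ends, but hardly so at the very largest rises. The 808 genes that wild type raised at least 2-fold had a median difference of 0.03 in A and 0.042 in B, with 446 and 472 genes higher under GIFN3. Among the 106 with a rise of at least 3 on the log2 scale it was 0.045 and 0.093, with 62 and 70 higher, 48 of them higher in both letters and 22 lower in both. By class, the medians were 0.112 and 0.087 in the 47 genes raised by 3 to 4. In the 47 raised by 4 to 6 they were 0.017 and 0.121, with 24 and 31 higher. The 12 raised by over 6 had 0.015 and 0.043, where the 1493 raised by 0.5 to 1 had 0.021 and 0.025. The quartiles of these 106 were -0.106 and 0.213 in A and -0.039 and 0.226 in B, so single genes lay on either side of 0. The 106 are those with a rise of at least 3. Their median log2 ratio to untreated cells was 4.028 and 4.082 under wild type, 3.471 and 3.287 for GIFN2, 3.481 and 3.406 for GIFN3, and 2.709 and 2.595 for GIFN4, in A and B in turn.

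At the lowered end a positive difference means that GIFN3 lowered the gene less than GIFN2. The 33 genes that wild type lowered by over 3 had a median difference of 0.207 in A and 0.145 in B, with 24 and 23 genes higher under GIFN3, 19 of them higher in both letters and 3 lower in both. Their median log2 ratio was -3.585 and -3.49 under wild type, -3.192 and -3.256 for GIFN2, -3.035 and -3.085 for GIFN3, and -2.024 and -2.222 for GIFN4. The 145 genes lowered by 2 to 3 had medians of 0.087 and 0.061, and the 977 lowered by 1 to 2 had 0.006 and 0.003. In the 7826 genes within 0.5 of no wild type change they were 0.0 and 0.004. For GIFN4 minus GIFN2 the medians were 1.261 and 1.038 in the 33 genes and -0.868 and -0.718 in the 106, and for GIFN4 minus GIFN3 0.992 and 0.955, and -0.886 and -0.825.

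**Figure D4:**
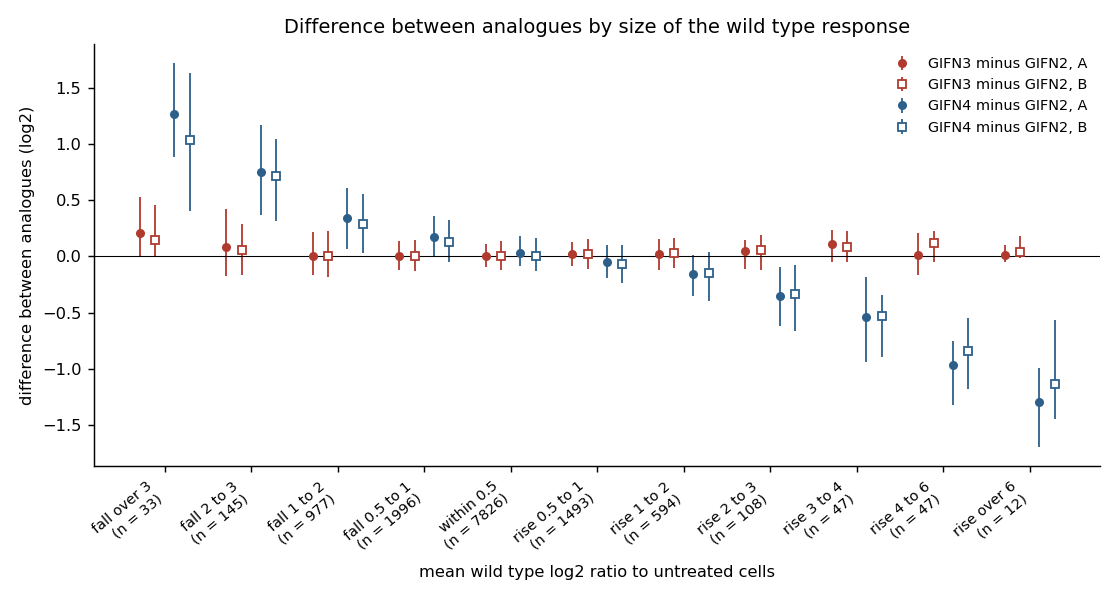
Median difference between analogues with quartiles (y axis, log2) in classes of the mean wild type log2 ratio (x axis, number of genes in brackets), for GIFN3 minus GIFN2 and GIFN4 minus GIFN2, letters A and B. GIFN3 minus GIFN2 stays between 0.0 and 0.207 in every class, while GIFN4 minus GIFN2 runs from 1.261 in the strongest falls to -1.293 in the strongest rises.

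As a slope through the origin on the wild type log2 change, the difference was 0.848 points in A and 1.86 in B over the 808 rises, where a point is 1% of the wild type change. Over the 1155 falls it was -3.52 and -3.43 points, which means a smaller fall under GIFN3. The same slopes for GIFN4 minus GIFN2 were -18.1 and -16.4 points over the rises and -30.0 and -26.3 over the falls. The gap between the letters was thus larger than the rise slope in A and far smaller than the fall slope.

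The lowered genes were also divided into 4 groups of nearly equal size by how far GIFN4 stood from wild type, a measure from libraries that do not enter the difference. This division was chosen after seeing the data. In the 289 lowered genes where GIFN4 exceeded wild type by 0.895 or more, the median difference was 0.167 in A and 0.123 in B, and 188 and 181 genes were higher under GIFN3. In the 289 genes with the smallest gap it was 0.0 in both, with 102 and 113 higher. The first of these groups also held the deeper falls, with a median wild type change of -1.749 against -1.22. Among the 808 rises, ordered from GIFN4 farthest below wild type to GIFN4 nearest or above it, the 4 groups had medians of 0.013, 0.013, 0.033 and 0.061 in A and 0.105, -0.001, 0.023 and 0.065 in B. The last 3 groups rose in the same order in both letters, and the letters differed in the first.

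The genes at the top of the wild type response showed the likeness gene by gene. Gene 1, the largest rise under wild type, had log2 ratios of 8.316 in GIFN2 A, 7.801 in GIFN2 B, 8.267 in GIFN3 A and 7.803 in GIFN3 B, which is a difference of -0.049 and 0.002. Gene 2 had 7.12 and 6.694 under GIFN2 and 7.065 and 6.7 under GIFN3, a difference of -0.055 and 0.006. The proteins were close within each letter in both genes, while the gap between letters also carries the difference between the untreated libraries. Genes 3, 4 and 5 had fitted differences of 0.097, 0.076 and 0.091, and the 95% intervals of all 5 genes reached from -0.252 at the lowest to 0.416 at the highest. GIFN4 lay below both proteins in each of these 5 genes in both letters, for example at 6.782 and 6.343 in gene 1.

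The strongest falls were less alike, but strongly lowered genes may have few treated reads, and none of these 5 had matched reads. Gene 20808 stood at -4.375 in GIFN2 A and -4.573 in GIFN2 B and at -3.561 and -3.864 in GIFN3 A and B, so the groups did not overlap. The differences of 0.814 and 0.709 gave a fitted value of 0.761 ± 0.074 (SE, n = 2; unadjusted p = 0.000705, adjusted p = 0.55, limma). Gene 20806 differed by 0.529 and 0.461, with a fitted value of 0.495 ± 0.3 and an interval from -0.36 to 1.35. The SE of the fit draws on GIFN4 as well, which stood at -2.373 in A and -3.173 in B in this gene. Gene 20812, the deepest mean fall, moved in opposite directions, by -0.149 in A and 1.033 in B. Genes 20811 (0.081 and -0.312) and 20804 (-0.297 and -0.174) had fitted differences of -0.116 and -0.235. The -0.312 of gene 20811 lies at the -0.311 that equal reads under both proteins give in B. None of the 5 passed the adjusted test.

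The 10 genes higher and the 10 genes lower under GIFN3 with the largest difference held in both letters were then listed. These genes were chosen for this difference, so their values are a description. The smaller of the 2 differences ran from 0.83 to 1.377 in the higher genes and from 0.781 to 1.066 in size in the lower genes, and the next genes outside, 3415 and 20449, stood at 0.799 and 0.78. Of the 20 genes, 8 of the higher and all 10 of the lower were genes of few reads, beside 3166 of all 13276 tested genes. Genes 18333, 3388, 14980 and 3724 stood at the apparent floor of 10 reads in 1 GIFN2 library, and genes 486, 20560, 1200 and 4439 in 1 GIFN3 library. These values may be held by the floor. Over all 13276 tested genes, 641 stood at 10 reads in 1 or more of the 4 libraries. Adjusted p-values lay between 0.55 and 0.627 (limma).

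Gene 20786 was the largest repeated difference among genes with no match to few reads. It stood at -3.192 in GIFN2 A, -3.709 in GIFN2 B, -2.008 in GIFN3 A and -2.137 in GIFN3 B, so both GIFN3 values lay above both GIFN2 values. The differences of 1.184 and 1.572 gave 1.378 ± 0.12 (SE, n = 2; unadjusted p = 0.000462, adjusted p = 0.55, limma). Wild type lowered this gene to -3.296 and -2.905, and under GIFN4 it stood nearer the untreated level, at -0.767 and -1.039. Gene 20485 had a smaller difference with a close repeat, 0.889 in A and 0.855 in B, from -1.537 and -1.705 under GIFN2 and -0.648 and -0.85 under GIFN3. In this gene wild type lay beside GIFN2, at -1.782 and -1.68, and GIFN4 nearest to untreated cells, at -0.102 and -0.207. In gene 20786 it lay beside GIFN2 in A and between both proteins in B.

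Other genes of the higher set rested on few matched reads, while the reads of genes 20786 and 20485 were not resolved. Both were lowered by wild type, and the match does not reach strongly lowered genes with over 100 untreated reads. Gene 20786, at a mean wild type log2 ratio of -3.1, may thus also rest on few treated reads. Gene 20351 rose from a matched 21 reads in GIFN2 A and 11 in GIFN2 B to 63 and 41 in GIFN3 A and B, with differences of 1.377 and 1.587. Gene 20451 had 25 and 26 reads under GIFN2 and 52 and 72 under GIFN3, with differences of 0.848 and 1.158. Gene 17431 went from 11 and 14 reads to 26 and 40, with the smallest unadjusted p of the set, 0.00022 (adjusted p = 0.55, limma). With such numbers a few reads more or fewer change the difference.

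The lower set was mixed, with 3 of 10 genes raised and 2 lowered at least 2-fold by wild type. Of all 13276 tested genes, 808 were raised and 1155 lowered that far. Gene 316 had log2 ratios of 1.815 in GIFN2 A and 1.897 in GIFN2 B and of 0.885 and 0.797 in GIFN3 A and B, with no overlap. Its matched reads were 33 and 38 under GIFN2 and 20 and 22 under GIFN3 over 10 untreated reads in each letter, and wild type stood at 1.718 and 1.724. Under GIFN4 it stood at 0.01 and -0.193, which are the values of equal reads in these libraries. Gene 413 followed the same order, with 1.436 and 1.61 for GIFN2, 0.55 and 0.434 for GIFN3 and -0.393 and -0.25 for GIFN4, and had 104 reads in GIFN2 A and 65 in GIFN3 A. Gene 486 had 29 and 24 reads under GIFN2 and 16 and 10 under GIFN3, and genes 1200 and 584 had 17 to 19 reads under GIFN2 and 10 to 13 under GIFN3. Gene 20746, lowered by wild type to -2.608 and -2.293, fell further under GIFN3 (-2.403 and -2.965) than under GIFN2 (-1.375 and -1.991), again on 12 to 30 reads. Gene 20560 was likewise lowered under both, to -1.359 and -1.21 under GIFN2 and -2.23 and -2.106 under GIFN3, and gene 16874 stood at -0.946 and -0.434 and at -1.739 and -1.248. Gene 14288 went from 1.315 to -0.081 in A and from -0.445 to -1.434 in B, and gene 4439 from 1.019 to -0.115 and from 0.363 to -0.434.

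**Figure D5:**
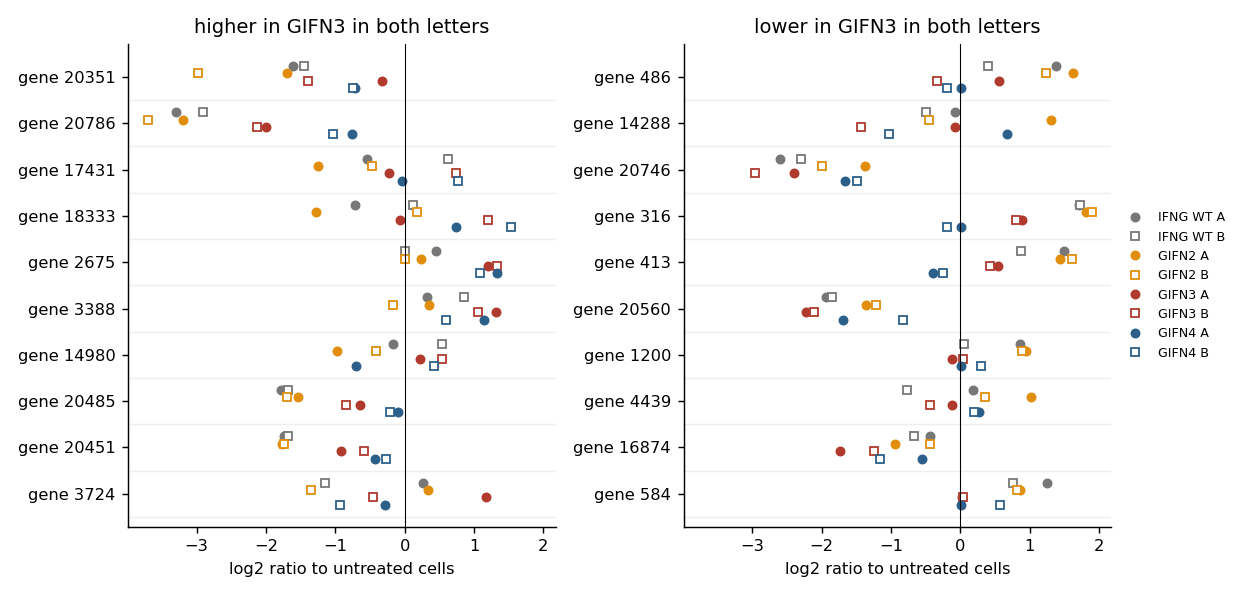
Log2 ratio to untreated cells (x axis) in each of the 8 treated libraries for the 10 genes higher (left) and the 10 lower (right) under GIFN3 with the largest difference held in both letters; filled points are letter A and open points letter B. Within each letter GIFN3 lies at least 0.83 above GIFN2 in the left panel and at least 0.781 below it in the right panel, by the choice of the genes. Gene 2675 holds 0.0 in IFNG WT B and GIFN2 B, with no matched reads in B, and this 0.0 may be no measured ratio.

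Among genes with no match to few reads the 5 largest repeated differences in each direction were listed after seeing the data. A missing match does not show many reads in strongly lowered genes such as 20786 and 20808. Of all 10110 such genes, 773 (7.65%) fell at least 2-fold under wild type, and the 10 listed were picked for their size, so nothing is read from their share. The 5 higher ones were 20786, 20485, 20024, 20808 and 20306, of which 4 fell at least 2-fold under wild type, and 20024 stood at a mean of -0.966. In each of these 5 genes GIFN4 stood above GIFN3 in both letters. So it did in 828 of the 1155 genes, few reads included, that wild type lowered at least 2-fold. The 5 lower ones were 20449, 14101, 19008, 20748 and 20664, of which 4 fell at least 2-fold under wild type. GIFN4 also stood above GIFN3 in both letters in genes 20449, 19008, 20748 and 20664, and in A only in gene 14101. Gene 20449 stood at -0.9 and -0.986 under GIFN2 and -1.916 and -1.766 under GIFN3, beside -1.736 and -1.489 under wild type. In gene 20449 GIFN3 was thus the nearer to wild type in both letters, and in gene 20485 it was the farther in both.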

How the data were processed

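RNA of A549 cells was amplified with the AmpliSeq human transcriptome panel and read on an Ion S5 XL, per the labels' protocols. The submitters' processing notes give hg19 as the build. Steps for counting and scaling were not given in the sources used here. What the authors deposited is a table of log2 values per library under the heading log2(DER), 0 throughout in untreated libraries and so read as log2 ratios to untreated cells of the same letter. Differences were taken within a letter by line position. Limma (3.58.1, R 4.3.3; robust empirical Bayes, Benjamini-Hochberg over all tested genes, threshold 0.05) was fitted to 6 analogue libraries with group and letter, which leaves 2 residual degrees of freedom. Wild type was kept out of that fit because earlier results gave its letters another pattern; here the A minus B gap of a gene correlated between pairs of analogues at 0.65 to 0.7, and at 0.0296 to 0.182 with wild type, all sharing the untreated libraries. The letter is a block because the ratios are built by letter. The labels tie no batch to it. If A and B were not separate cultures, p-values measure technical spread only. Whole reads were matched within 0.0012 (log2) and a chance under 0.005; 53 lines of A and 54 of B matched after random shifts of up to 0.05. Absolute depth is unknown, and depth relative to untreated ran from 0.938 to 1.27 in the 4 libraries. Scripts were tested on simulated data. The comparison, lists and tests were chosen with earlier results of these data known. Named genes were the 10 per direction with the largest difference held in both letters, called genes (there were 0) and the 5 largest mean wild type rises and falls.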

Additional observations from a re-analysis of the deposited data

How the results depend on the processing

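The count of 0 genes between GIFN3 and GIFN2 held under every alternative run: without the letter (no replicate block, 0 genes, 259 at an unadjusted p under 0.05), with all 10 libraries, with the GIFN2 and GIFN3 libraries alone, with median centring, other filters, empirical Bayes that was not robust and without each of the 4 libraries in turn (586 to 1035 at an unadjusted p under 0.05). The counts of 0 for GIFN4 were less stable. GIFN4 against GIFN2 gave 139 with all 10 libraries, 83 with each library centred on its median, 89 over genes not at 0 in the 6 analogue libraries, 392 without genes of few reads and 144 with both all libraries and no genes of few reads, a setting added after seeing the data. GIFN4 against GIFN3 gave 50, 136 and 70 with all libraries, without genes of few reads and with both. Without the replicate block, over all 20812 lines and with empirical Bayes that was not robust, both GIFN4 comparisons gave 0. GIFN4 against GIFN3 also gave 0 with centring and over genes not at 0 in the 6 analogue libraries. The share of differences of at least 0.2 with the same sign in the other letter, 57.9% on average over both letters of choice, became 58.7% with centring, 59.0% over genes not at 0 in the 4 libraries and 63.3% without genes of few reads; at 0.5 the last setting moved it from 54.7% to 62.9%, nearly all of it in genes chosen in A (56.7% to 71.1%, against 52.6% to 54.7% in B). The mean over letters of the median difference in falls of at least 2-fold, 0.0115, became 0.017 with centring, 0.0215 with classes from wild type A and 0.0 with wild type B, and that in falls of at least 2 on the log2 scale went from 0.0973 to 0.065 with wild type B. The fall slope of -3.48 points became -3.82, -3.29 and -3.12 in the same order. No named gene passed the adjusted test under any alternative, with a lowest adjusted p of 0.427 (limma). At 15 to 25 reads the difference of 1 letter had an SD of 0.59 to 0.597, which limits what can be seen in such genes.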
